A study of Mus musculus with 6 samples.

Results

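The mitochondrial carrier family is taken here as the genes named Slc25a followed by a number and the uncoupling protein genes Ucp1 to Ucp3. It was followed in whole small intestine of mouse embryos at E18.5, shortly before birth, on 3 arrays from control embryos, labelled wildtype, and 3 arrays from E-cadherin conditional knockout (cKO) embryos. E-cadherin, encoded by Cdh1, is the adhesion molecule of epithelial adherens junctions. The sources used here do not name the promoter that drives the recombination, the deleted part of Cdh1, the strain or the number of embryos behind each sample. Members were taken by symbol alone: 48 genes of the 19938 measured by a probe set with a single gene symbol were members, on 52 probe sets, and the brightest probe set was used for the 3 members that had several. Ucp2 was not analysed here. Values are the authors' expression values, read as log2, so a difference of 1 is a 2-fold change as measured. Tests are from limma fitted to all 19938 genes, with p-values adjusted over all of them by the Benjamini-Hochberg method and a threshold of 0.05.

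Carriers of this family are small proteins with 3 similar repeats that cross the inner mitochondrial membrane and exchange nucleotides, phosphate, carboxylates, amino acids, acylcarnitines, cofactors or iron between the cytosol and the matrix. A few members sit in the peroxisomal or the outer mitochondrial membrane. In the small intestine around birth, absorptive enterocytes burn fatty acids, make citrulline and arginine from glutamate and glutamine, and make glucose, and each of these routes passes through carriers of this family. The samples were whole intestine, so a lower number of enterocytes and less RNA per enterocyte cannot be told apart.

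Array medians lay between 6.17 and 6.50, with the lowest on cKO 2. A background level was set on each array at the 95th percentile of 1231 chemosensory receptor genes (smell, pheromone and taste), and it ran from 5.78 on cKO 2 to 6.36 on control 3. Cdh1 itself read 9.86, 9.82 and 10.15 on control 1, 2 and 3 and 9.70, 8.38 and 8.91 on cKO 1, 2 and 3. All cKO values were below all control values, least so on cKO 1. The difference was -0.95 (SE 0.31, limma adjusted p = 0.088, exact two-sided permutation p = 0.1, the smallest that 3 against 3 arrays allow), and probes outside the deleted part would not report the deletion. The array cKO 3 stood apart in genes of exocrine pancreas: the digestive enzyme genes Ctrb1, Cpa1, Prss2 and Cela1 read 12.39, 10.48, 9.17 and 9.11 there, while on the other 5 arrays they lay between 5.49 and 7.03. The counts of carriers are therefore also given without each array. With each array left out in turn, the limma adjusted p of Cdh1 ran from 0.012 to 0.26. The lowest came without cKO 1, with a difference of -1.30. The Cdh1 value of cKO 1 was nearest the controls, so leaving it out could only widen the difference.

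Of the 48 carriers, 7 were lower and 3 higher in the cKO intestine. The 7 that fell were the orphan carrier gene Slc25a34, the ornithine carrier gene Slc25a15, the branched-chain amino acid carrier gene Slc25a44, the acylcarnitine carrier gene Slc25a20, the aspartate-glutamate carrier gene Slc25a13, the pyrimidine nucleotide carrier gene Slc25a36 and the citrate carrier gene Slc25a1. The 3 that rose were the ATP-magnesium/phosphate carrier gene Slc25a24, the other aspartate-glutamate carrier gene Slc25a12 and the peroxisomal carrier gene Slc25a17. The members called made up 20.8% of the family, against 14.2% of all genes tested; 14.6% fell, against 7.36% of all genes, and 6.25% rose, against 6.81%. The median difference over the family was -0.23, beside -0.09 over all genes, and 37 members (77.1%) had a negative difference, as had 61.5% of all genes. In 20 members (41.7%) the groups did not overlap, with 16 of them lower in the cKO, against 35.4% of all genes in either direction and 19.3% lower. Of the family, 7 members lay at or below background on all 6 arrays (Slc25a2, Slc25a21, Slc25a35, Slc25a41, Slc25a53, Slc25a54 and Ucp1), and 31 lay above it on all 6. Of those 31, 9 passed the threshold and their median was -0.25, beside 18.8% and -0.05 for the 12063 genes above background on all arrays. The count of members that fell was 3 (6.25%) without control 2, without control 3 or without cKO 3, against 3.60%, 4.20% and 4.31% of all genes. It was 5 (10.4%) without control 1, 7 (14.6%) without cKO 1 and 6 (12.5%) without cKO 2, against 5.52%, 7.21% and 6.47% of all genes. The count that rose was 2 (4.17%) without control 2, against 2.55% of all genes. It was 3 (6.25%) without any other array, against 3.30% to 6.39%. With each array centred on its median over all probe sets, 3 members fell (6.25%, against 5.47% of all genes) and 4 rose (8.33%, against 7.47%), as the median of all genes moved from -0.09 to 0.01. Under that scaling the share that fell lay near the share of all genes.

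**Figure D1:**
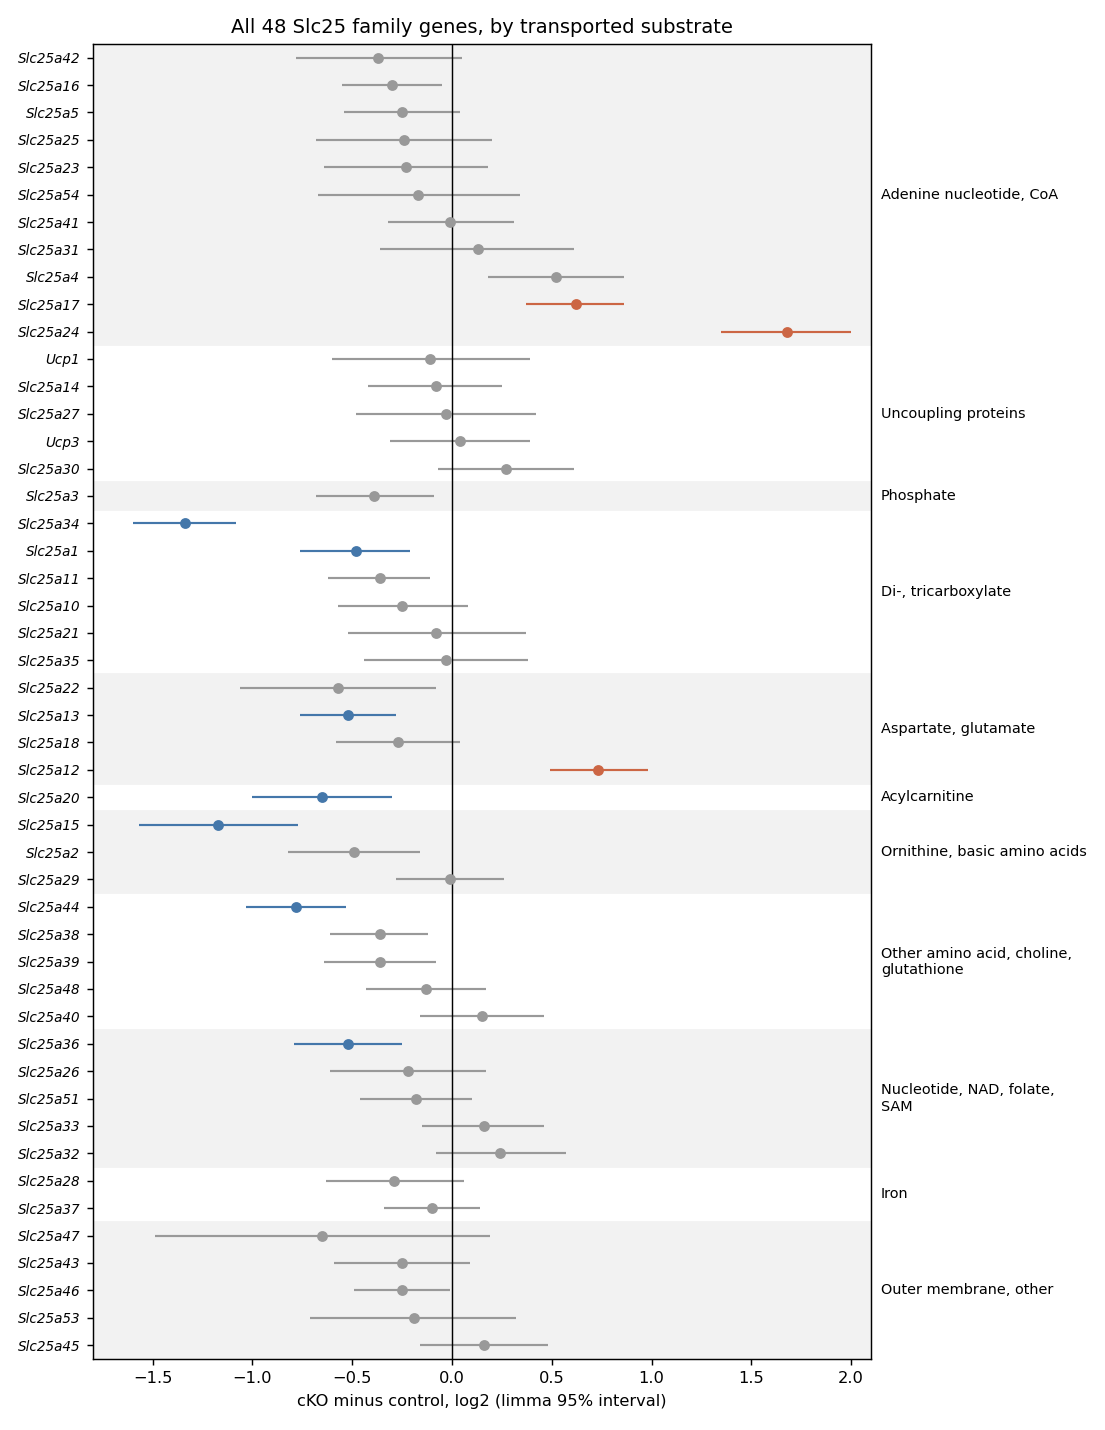
Difference between cKO and control (log2, horizontal axis) of each of the 48 carrier genes with limma's 95% interval, grouped by transported substrate. Blue marks the 7 members that fell, orange the 3 that rose and grey the 38 that did not pass the threshold; the differences run from -1.34 for Slc25a34 to 1.68 for Slc25a24.

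Markers of the cell types in whole intestine moved between the same groups. Of 12 enterocyte markers 8 fell and 0 rose, and the fatty acid binding protein genes Fabp2, at -1.68, and Fabp1, at -1.89, had the smallest p. Their median was -1.07 and their mean level was 10.96 to 11.56 on the controls and 9.92 to 10.11 on the cKO arrays; Sis was at background on all arrays. The call of Apoa4 was lost without control 2 or 3 (limma adjusted p = 0.098 and 0.093) and that of Slc5a1 without control 2 (0.0502). Of 11 general epithelial markers 5 rose and 2 fell, with a median of -0.02. Their mean level was 10.16 to 10.44 on the controls and 10.68 to 10.77 on the cKO arrays. Those that rose were the keratin genes Krt8 at 0.91, Krt18 at 1.19, Krt19 at 0.77 and Krt20 at 1.61 and the protease gene Tmprss2 at 2.12, and those that fell were the intestinal transcription factor genes Cdx1 at -0.60 and Cdx2 at -0.79. The call of Krt20 was lost without control 2, cKO 2 or cKO 3 (limma adjusted p of 0.063 to 0.073). That of Cdx1 was lost without control 1, 2 or 3 or cKO 3 (0.063 to 0.085 by limma). Epcam, an adhesion gene of epithelial cells, differed by -0.10 (limma adjusted p = 0.59) and Cdh17, an intestinal cadherin gene, by -0.15 (0.51). All 8 smooth muscle markers rose, Des at 1.35 and Synm at 1.39 with the smallest p, and their mean level was 9.97 to 10.23 on the controls and 10.95 to 11.17 on the cKO arrays. The call was lost for 3 of them, Acta2, Myh11 and Smtn, without control 2, without control 3 or without cKO 3 (limma adjusted p of 0.053 to 0.13). All 6 fibroblast markers rose, with a median of 0.69 and a mean level of 10.17 to 10.37 and 10.91 to 11.16. Of these calls 1, that of Pdgfra, was not lost without control 2 or without control 3, 2 were not lost without cKO 1 or without cKO 3, and 3 without control 1 (limma adjusted p of the lost calls 0.0506 to 0.15). Of 12 macrophage and neutrophil markers 7 rose and 0 fell, with a median of 1.05 and a mean level of 6.11 to 6.18 and 6.94 to 7.49. The calls of S100a8 and Ly6g were lost without control 1, 2 or 3 (limma adjusted p of 0.059 to 0.15). That of S100a8 was also lost without cKO 1 (0.0516 by limma). Of 7 neuronal and glial markers 1 rose (Uchl1), and of 7 striated muscle markers 1 rose (Ckm). The call of Uchl1 was kept only without control 1 (limma adjusted p otherwise 0.0521 to 0.12). That of Ckm was kept only without cKO 2 (otherwise 0.091 to 0.16 by limma). Of 6 endothelial markers 0 passed by limma (3 at an unadjusted p under 0.05), and of 6 liver and pancreas markers 0 passed (0 at an unadjusted p under 0.05), with a mean level of 6.93 to 7.0 on the controls and 6.51 to 9.16 on the cKO arrays. The part of these markers in the carriers that fell or rose was not tested.

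The stretches upstream of the transcription start are shown for 2 carriers that fell and 2 that rose, since members that move together may be compared at their promoters. They have the largest differences in each direction among the members past the threshold whose tabled start is the outermost end of the gene. Each run holds the 250 bases before the start, 5′ to 3′ on the gene's own strand, from RefSeq on GRCm38.p6. They lie at chr8:22398622-22398871 on the minus strand for Slc25a15, at chr9:108661886-108662135 on the plus strand for Slc25a20, at chr3:109122899-109123148 on the plus strand for Slc25a24 and at chr15:81360766-81361015 on the minus strand for Slc25a17. Capitals mark exact matches, on either strand, to the GC box GGGCGG and the CCAAT box CCAAT.
Slc25a15: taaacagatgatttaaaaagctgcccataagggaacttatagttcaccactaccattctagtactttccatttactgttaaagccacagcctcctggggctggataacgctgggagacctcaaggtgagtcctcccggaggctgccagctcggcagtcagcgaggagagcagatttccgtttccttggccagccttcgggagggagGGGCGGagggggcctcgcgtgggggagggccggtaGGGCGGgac
Slc25a20: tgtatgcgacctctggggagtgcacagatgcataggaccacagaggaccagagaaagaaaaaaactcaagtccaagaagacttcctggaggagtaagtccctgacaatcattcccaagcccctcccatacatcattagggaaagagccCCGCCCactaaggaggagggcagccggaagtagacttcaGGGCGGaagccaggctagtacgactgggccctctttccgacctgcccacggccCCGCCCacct
Slc25a24: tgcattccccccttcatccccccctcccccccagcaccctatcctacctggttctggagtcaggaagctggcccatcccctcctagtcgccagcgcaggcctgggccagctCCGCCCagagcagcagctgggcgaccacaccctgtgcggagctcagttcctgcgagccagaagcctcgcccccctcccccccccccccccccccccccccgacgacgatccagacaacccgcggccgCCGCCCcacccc
Slc25a17: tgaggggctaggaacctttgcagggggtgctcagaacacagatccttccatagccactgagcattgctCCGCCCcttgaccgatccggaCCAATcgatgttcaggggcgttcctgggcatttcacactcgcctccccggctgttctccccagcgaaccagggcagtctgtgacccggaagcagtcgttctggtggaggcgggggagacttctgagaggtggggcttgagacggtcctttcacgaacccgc
All 4 windows hold at least 1 GC box, whichever way the gene moved. Windows were found for 38 of the 48 members. The GC box, a common element of promoters that lack a TATA box, stood in 66.7% of the 48 windows of these members, against 32.7% of all 32851 windows. Counted by gene it was found for 25 of the 38 members (65.8%), against 49.3% of the 15614 tested genes with a window. The CCAAT box was found for 18 members (47.4%, against 38.8% of tested genes). The E-box CACGTG was found for 7 of the 38 members (18.4%), against 8.11% of tested genes, and for 4 of the 6 members with a window that fell (Slc25a1, Slc25a13, Slc25a15 and Slc25a36) and 0 of the 3 that rose. The E-box of Slc25a15 lies in another window of the gene than the one shown. TATAAA was found for 2 members (5.26%, against 12.5% of tested genes), the nuclear receptor half-site AGGTCA for 6 (15.8%, against 14.3%) and the AP-1 site TGANTCA for 2 (5.26%, against 7.12%). Among members past the threshold, AGGTCA was present for Slc25a34 and TGANTCA for Slc25a13. These matches describe letters in the windows and do not show binding.

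The main ornithine carrier gene fell, and so did most of the measured enzymes of its route. Slc25a15 exchanges cytosolic ornithine for citrulline made in the matrix. It read 10.31, 10.37 and 10.42 on control 1, 2 and 3 and 9.56, 9.07 and 8.96 on cKO 1, 2 and 3. The highest cKO value, on cKO 1, still lay below the lowest control. The means were 10.37 ± 0.06 and 9.20 ± 0.32 (SD, n = 3 each), a difference of -1.17 (SE 0.17, 95% interval -1.57 to -0.77, limma adjusted p = 0.0052), or 2.25-fold lower. Slc25a2, the second ornithine carrier gene, read 5.27 to 5.69 on the cKO arrays and 5.93 to 6.11 on the controls, with all 6 values at background, and its difference of -0.49 did not pass (limma adjusted p = 0.061). Slc25a29, a carrier of basic amino acids, differed by -0.01 (95% interval -0.28 to 0.26, limma adjusted p = 0.97).

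Of 9 measured enzymes of citrulline, ornithine and glutamate metabolism, 6 fell and 0 rose, with a median difference of -1.07. Otc, ornithine transcarbamylase, which makes citrulline in the matrix, fell by 1.83 (SE 0.22). Asl, argininosuccinate lyase, fell by 1.46, Nags, which makes the activator of carbamoyl phosphate synthesis, by 1.31, and Aldh18a1, which opens the route from glutamate to ornithine, by 1.21 (limma adjusted p at or below 0.0026 for these 4 genes). The list was compiled with earlier results of these data known.

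The acylcarnitine carrier gene Slc25a20 fell, a call that rested on most of the arrays. It brings acylcarnitines into the matrix in exchange for carnitine. Its values were 10.04, 10.34 and 10.55 on control 1, 2 and 3 and 9.65, 9.65 and 9.68 on cKO 1, 2 and 3. The cKO arrays were nearly level and lay below every control, while the controls spread over a wider range. From 10.31 ± 0.26 to 9.66 ± 0.02 (SD, n = 3 each) the difference was -0.65 (SE 0.15, limma adjusted p = 0.027), or 1.57-fold lower. This call was lost without control 2, control 3, cKO 1, cKO 2 or cKO 3 (limma adjusted p = 0.11, 0.084, 0.059, 0.0502 and 0.079) and with median centring (0.0537).

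Of 6 measured genes of the carnitine shuttle, 3 fell and 0 rose, with a median of -0.73. In all 6 the groups did not overlap, with 5 of them lower and Cpt1c higher at 0.26. Among all genes tested the groups did not overlap in 35.4%. Crot, the peroxisomal carnitine octanoyltransferase, fell by 1.18 (SE 0.12, limma adjusted p = 0.0017). Slc22a5, which takes carnitine into the cell, fell by 1.08 (SE 0.20), and Cpt2, which acts in the matrix just after Slc25a20, fell by 0.74 (SE 0.16, limma adjusted p = 0.022). Without cKO 3 the count was 1, Crot. Slc22a5 was not called without cKO 3 (0.0533 by limma), nor Cpt2 without control 2, control 3 or cKO 3 (0.088, 0.067 and 0.070). Crat, carnitine acetyltransferase, and Cpt1a, which forms acylcarnitines at the outer membrane, differed by -0.72 and -0.54 and did not pass (limma adjusted p = 0.094 and 0.13).

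Among 6 carriers grouped as di- and tricarboxylate carriers, Slc25a34 and Slc25a1 fell and 4 did not pass. Slc25a34 has no settled substrate and is grouped here by its kinship to carboxylate carriers. Its values were 7.29, 7.41 and 7.30 on control 1, 2 and 3 and 5.89, 6.10 and 5.99 on cKO 1, 2 and 3. All cKO values lay below all controls, and those of cKO 1 and cKO 3 were at background. The means were 7.33 ± 0.07 and 5.99 ± 0.11 (SD, n = 3 each), a difference of -1.34 (SE 0.11, 95% interval -1.60 to -1.08, limma adjusted p = 0.00084), or 2.53-fold lower as measured. With these 2 arrays raised to their background level the fold was 2.28.

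Slc25a1, which exports citrate to the cytosol for lipid synthesis, read 10.52, 10.60 and 10.54 on the controls and 10.19, 10.10 and 9.92 on cKO 1, 2 and 3. All cKO values lay below all controls, and the difference of -0.48 (SE 0.12) had a limma adjusted p of 0.033. The call was lost under each of the other scalings, by quantiles, by medians and by cyclic loess (limma adjusted p = 0.12, 0.13 and 0.064), and without control 1, control 2, control 3 or cKO 3 (0.083, 0.14, 0.099 and 0.12). Slc25a11, the oxoglutarate-malate carrier gene, read 9.89 to 10.05 on the controls and 9.53 to 9.69 on the cKO arrays. Its groups did not overlap, but the difference of -0.36 did not pass (limma adjusted p = 0.071), nor did that of the dicarboxylate carrier gene Slc25a10 at -0.25 (0.29). Slc25a21 and Slc25a35 lay at background on all arrays.

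Of 7 enzymes that use or make citrate, malate or oxaloacetate, 3 fell and 0 rose, with a median of 0.06. Pck1, the cytosolic gluconeogenic enzyme, fell by 3.47 (SE 0.52, limma adjusted p = 0.0060). Me2, the mitochondrial malic enzyme, fell by 0.55 and Pcx, pyruvate carboxylase, by 0.68, with limma adjusted p of 0.032 and 0.0499. Me2 was not called without control 1, 2 or 3 or cKO 2 or 3 (limma adjusted p of 0.055 to 0.11) or with median centring (0.088). Pcx was not called without control 1, 2 or 3 or cKO 1 or 2 (0.082 to 0.17), with median centring (0.052) or with array weights (0.12). Acly, which splits the exported citrate, differed by 0.33 (limma adjusted p = 0.14).

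The calcium-regulated aspartate-glutamate carriers moved in opposite directions. They export aspartate from the matrix in the malate-aspartate shuttle, and Slc25a13 is the form best known from liver while Slc25a12 is best known from muscle and nerve. Slc25a12 read 7.71, 7.71 and 7.57 on control 1, 2 and 3 and 8.38, 8.41 and 8.40 on cKO 1, 2 and 3. Every cKO value was above every control, and the cKO arrays were almost equal. The difference was 0.73 (SE 0.11, 95% interval 0.49 to 0.98, limma adjusted p = 0.0049), or 1.66-fold higher. Slc25a13 read 9.18, 9.08 and 9.20 on the controls and 8.61, 8.61 and 8.68 on cKO 1, 2 and 3. Here every cKO value was below every control. The difference was -0.52 (SE 0.10, 95% interval -0.76 to -0.28, limma adjusted p = 0.017), a call lost without control 1, 2 or 3 or cKO 3 (0.062, 0.066, 0.067 and 0.056) and with median centring (0.073).

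Slc25a22, a glutamate carrier gene, read 9.36 to 9.58 on the controls and 9.39, 8.71 and 8.62 on cKO 1, 2 and 3. The cKO 1 value lay within the control range, and the difference of -0.57 did not pass (limma adjusted p = 0.12). Without cKO 1 it passed (0.013 by limma), and without any other single array it did not (0.22 to 0.30). Slc25a18, the other glutamate carrier gene, differed by -0.27 (limma adjusted p = 0.23). Of the 4 enzymes of the malate-aspartate shuttle only Mdh1, the cytosolic malate dehydrogenase, fell, by 0.60 (limma adjusted p = 0.030), a call lost without control 2 or 3 or any of cKO 1, 2 and 3 (0.0505 to 0.091) and with quantile normalization and cyclic loess (0.056 and 0.063). Got1, Got2 and Mdh2 differed by 0.14, -0.10 and -0.13.

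**Figure D2:**
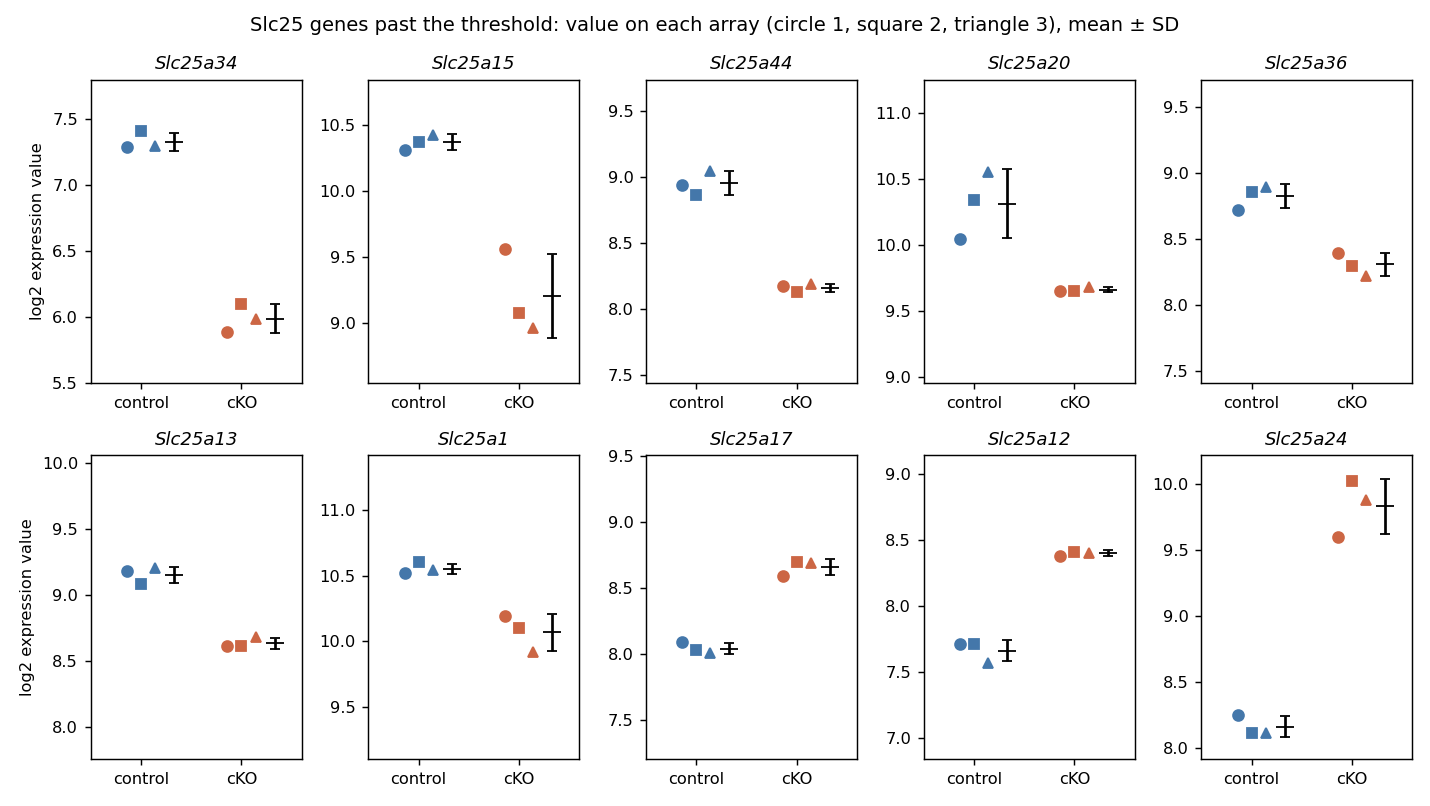
Values (log2, vertical axis, each panel spanning the same range) of the 10 carriers past the threshold on the 3 control and 3 cKO arrays, with the mean and SD of each group beside the points. The 7 genes from Slc25a34 to Slc25a1 lie lower and Slc25a17, Slc25a12 and Slc25a24 higher on all cKO arrays.

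Among 11 carriers of adenine nucleotides and coenzyme A, 2 rose and 0 fell. Slc25a24 exchanges ATP-magnesium for phosphate across the inner membrane under control of cytosolic calcium and so sets the nucleotide content of the matrix. It read 8.25, 8.11 and 8.11 on control 1, 2 and 3 and 9.60, 10.02 and 9.88 on cKO 1, 2 and 3. This was the largest difference in the family, with no overlap. From 8.16 ± 0.08 to 9.83 ± 0.21 (SD, n = 3 each) the difference was 1.68 (SE 0.14, limma adjusted p = 0.00080), or 3.20-fold higher. Its relatives Slc25a23 and Slc25a25, which transport the same substrates, differed by -0.23 (95% interval -0.64 to 0.18) and -0.24 (95% interval -0.68 to 0.20).

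Slc25a17, which carries coenzyme A and other cofactors into peroxisomes, read 8.09, 8.03 and 8.01 on the controls and 8.59, 8.70 and 8.69 on cKO 1, 2 and 3. All cKO values lay above all controls. The difference was 0.62 (SE 0.10, limma adjusted p = 0.0088), or 1.53-fold higher, and was lost without control 2 (0.0545). Slc25a42 and Slc25a16, linked to coenzyme A in mitochondria, differed by -0.37 and -0.30 and did not pass (limma adjusted p = 0.23 and 0.12). Slc25a41 and Slc25a54, at background on all 6 arrays, and Slc25a31, at background on 5, differed by -0.01, -0.17 and 0.13.

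The ADP/ATP carriers Slc25a4, the form of heart and muscle, and Slc25a5, the form of dividing cells, exchange the products of oxidative phosphorylation for its substrate. Slc25a4 read 10.92, 10.76 and 10.51 on control 1, 2 and 3 and 11.21, 11.13 and 11.41 on cKO 1, 2 and 3. The groups did not overlap, but the difference of 0.52 (SE 0.15, 95% interval 0.18 to 0.86) had a limma adjusted p of 0.056. It passed under each of the other scalings, by quantiles, by medians and by cyclic loess (limma adjusted p = 0.015, 0.033 and 0.017). With the values as deposited it did not pass whichever array was left out (limma adjusted p of 0.057 to 0.17), nor with a replicate block (0.11). On those values it passed without the dimmest 25% or the dimmer 50% of genes (limma adjusted p = 0.033 and 0.021). The same held with a mean-variance trend and with array weights (0.017 and 0.006 by limma). Slc25a5 read 11.78, 11.93 and 12.05 on the controls and 11.64, 11.59 and 11.78 on the cKO arrays, with a difference of -0.25 (limma adjusted p = 0.23). Its 3 probe sets gave -0.25, -0.26 and -0.26, and the gene has near-identical copies elsewhere in the genome, so its values are uncertain. Slc25a3, which brings phosphate for ATP synthesis, read 11.29, 11.44 and 11.64 on the controls and 11.04, 11.07 and 11.10 on the cKO arrays. Its groups did not overlap and the difference of -0.39 did not pass (limma adjusted p = 0.085).

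Related carriers were set against each other by the ratio of the pair on each array, which shows unequal change but not which of them changed. The 8 pairs were chosen after their values had been seen. Relative to the control mean, the log2 ratio of Slc25a12 to Slc25a13 was 1.26, 1.29 and 1.21 on cKO 1, 2 and 3 and -0.14 to 0.12 on the controls. That of Slc25a4 to Slc25a5 was 0.76, 0.73 and 0.82, against -0.35 to 0.33 on the controls. The ratio of Slc25a24 to Slc25a23 differed by 1.91 and that of Slc25a24 to Slc25a25 by 1.92 on average. The ratio of the iron carriers, Slc25a28 to Slc25a37, differed by -0.19 with overlapping groups. In the other pairs Slc25a35, Slc25a2 and Slc25a33 lay at background on 5 or 6 of the arrays, so their ratios mostly show the partner gene. Because of how the pairs were chosen, the ratios are a description with no test.

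**Figure D3:**
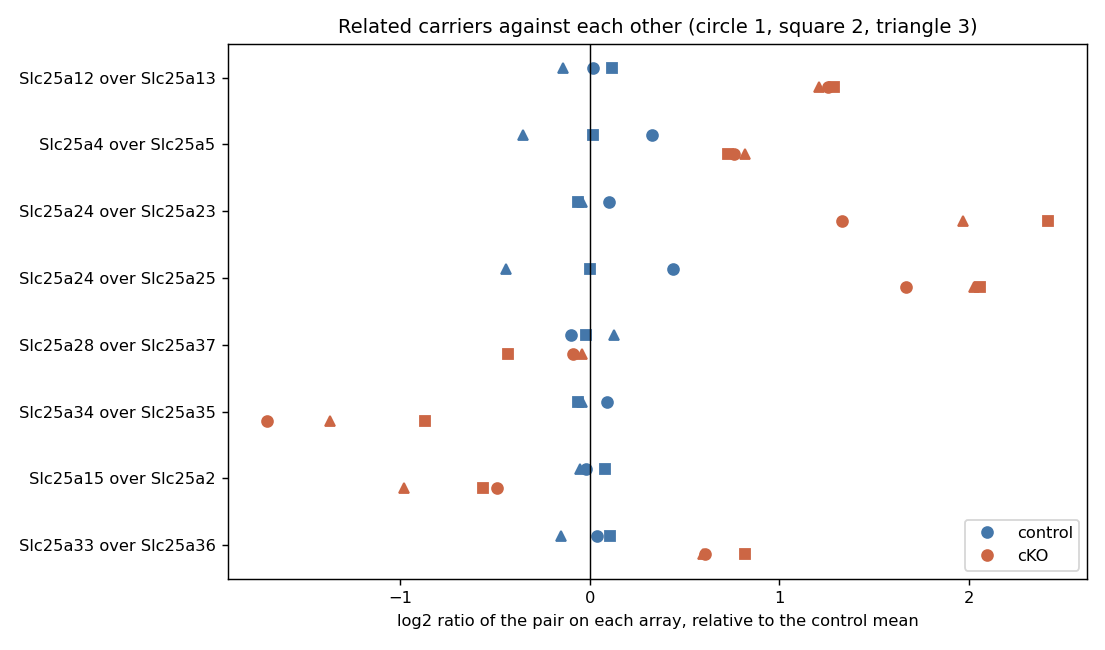
Log2 ratio of 8 pairs of related carriers on each array, relative to the control mean (horizontal axis), with control arrays in blue and cKO arrays in orange. The ratio of Slc25a12 to Slc25a13 lies between 1.21 and 1.29 on the cKO arrays and between -0.14 and 0.12 on the controls, while the iron carriers overlap; Slc25a35, Slc25a2 and Slc25a33 lie at background on 5 or 6 arrays.

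Of 5 carriers of other amino acids, choline and glutathione, Slc25a44 fell. It imports branched-chain amino acids for their breakdown in the matrix. It read 8.94, 8.86 and 9.04 on control 1, 2 and 3 and 8.17, 8.13 and 8.19 on cKO 1, 2 and 3. The groups lay well apart, with a spread on the cKO arrays of 0.03 (SD, n = 3). The difference was -0.78 (SE 0.11, 95% interval -1.03 to -0.53, limma adjusted p = 0.0041), or 1.72-fold lower. Slc25a38, which brings glycine for heme synthesis, and Slc25a39, a glutathione carrier gene, both differed by -0.36 with no overlap and did not pass (limma adjusted p = 0.058 and 0.090). Slc25a40, a relative of Slc25a39, differed by 0.15 (limma adjusted p = 0.50), and Slc25a48 by -0.13 (0.55).

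Of 5 carriers of nucleotides and cofactors, Slc25a36 fell. It carries pyrimidine nucleotides that mitochondrial DNA and RNA synthesis use. It read 8.72, 8.86 and 8.90 on control 1, 2 and 3 and 8.40, 8.30 and 8.22 on cKO 1, 2 and 3, with no overlap. The difference was -0.52 (SE 0.11, limma adjusted p = 0.024), and the gene's other probe set gave -0.62 (0.023 by limma). The call was lost without control 2, control 3 or cKO 3 (limma adjusted p = 0.11, 0.088 and 0.091) and with median centring (0.083). The other pyrimidine nucleotide carrier gene, Slc25a33, differed by 0.16 and lay at background on 5 of 6 arrays, and Slc25a26, Slc25a32 and Slc25a51, which carry S-adenosylmethionine, folate and NAD, differed by -0.22, 0.24 and -0.18, all short of the threshold (limma adjusted p of 0.30 or more).

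Of the 5 uncoupling proteins and their relatives 0 passed by limma (0 at an unadjusted p under 0.05). Ucp1, which lets brown fat turn the proton gradient into heat, read 5.60 to 5.89 on the controls and 5.34 to 6.13 on the cKO arrays, at background on all 6. Ucp3, the form of skeletal muscle, read 6.90, 6.85 and 6.73 on the controls and 6.87, 6.62 and 7.11 on the cKO arrays, with a difference of 0.04 (95% interval -0.31 to 0.39). The more distant relatives Slc25a14, Slc25a27 and Slc25a30 differed by -0.08, -0.03 and 0.27. In all 5 the groups overlapped. Of 10 adipocyte markers 0 passed by limma (1 at an unadjusted p under 0.05), with Ucp1, Cidea, Adipoq, Elovl3 and Dio2 at background on all arrays and a mean level of 6.26 to 6.53 on the controls and 6.0 to 6.32 on the cKO arrays.

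The mitoferrins Slc25a28 and Slc25a37, which bring iron into the matrix for heme and iron-sulphur clusters, did not pass either (0 of 2 at an unadjusted p under 0.05 by limma). Slc25a28 read 8.82, 8.94 and 9.06 on the controls and 8.82, 8.39 and 8.75 on the cKO arrays, a difference of -0.29 (95% interval -0.63 to 0.06, limma adjusted p = 0.25). Slc25a37, the form that developing red cells rely on, read 6.95, 6.99 and 6.96 against 6.94, 6.85 and 6.82, a difference of -0.10 (95% interval -0.34 to 0.14). Of 8 heme synthesis enzymes, Cpox and Fech, which act late in the pathway inside mitochondria, fell by 1.09 (SE 0.14) and 0.69 (SE 0.11), with limma adjusted p of 0.0033 and 0.0061, and 0 rose. Of 7 erythroid markers 0 passed by limma (2 at an unadjusted p under 0.05), 4 were at background on all arrays (Hbb-bh1, Epb42, Hemgn and Tspo2), and their mean level was 5.84 to 6.05 on the controls and 5.62 to 5.86 on the cKO arrays.

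In the group of outer membrane and less characterised members 0 of 5 passed by limma (1 at an unadjusted p under 0.05). Slc25a46, an outer membrane protein that shapes mitochondria, differed by -0.25 with no overlap (limma adjusted p = 0.16). Slc25a47, a carrier gene of liver, varied most within the cKO group, at 7.28, 6.56 and 8.07 on cKO 1, 2 and 3 against 8.11, 8.13 and 7.62 on the controls. The value on cKO 3 was the highest of the cKO group and lay within the control range. That array had raised pancreatic genes, whose part in this value was not tested. The difference of -0.65 did not pass (limma adjusted p = 0.28). Slc25a43, Slc25a45 and Slc25a53 differed by -0.25, 0.16 and -0.19.

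The 9 lists around the carriers also hold genes of the cytosol, the peroxisome and the plasma membrane. Of their 98 genes 27 fell and 0 rose, with a median of -0.14. Beside these and the list counts below, 7.36% of all genes fell and 6.81% rose, with a median of -0.09. Some passed as higher in other settings, among them the import channel gene Tomm40 with quantile normalization (limma adjusted p = 0.037) and the chaperonin gene Hspd1 with quantile normalization and cyclic loess (0.036 and 0.029). The count past the threshold was 13, 16 and 16 without control 2, control 3 and cKO 3. Of 17 citric acid cycle enzymes 5 fell (median -0.29), among them the succinyl-CoA ligase subunits Suclg1, Suclg2 and Sucla2 at -0.61, -0.59 and -0.65 and the succinate dehydrogenase subunit Sdhd at -0.64. These 4 calls were lost without control 2 (limma adjusted p = 0.062, 0.0548, 0.086 and 0.073), those of the ligase subunits also with median centring (0.0535, 0.0532 and 0.069), those of Sucla2 and Sdhd without control 3 (0.074 and 0.063) and that of Sucla2 without cKO 3 (0.064). Of 16 other transporters of the inner and outer membrane 3 fell (median 0.00): Mtch2, an outer membrane relative of the carriers, at -0.61, the pyruvate carrier subunit Mpc1 at -0.59 and Abcb10 at -0.46. The call of Mtch2 was lost without control 2 or cKO 3 (0.060 and 0.0515 by limma), and those of Mpc1 and Abcb10 without each control in turn (0.062 to 0.13) and cKO 3 (0.076 and 0.10), that of Mpc1 also without cKO 1 (0.063). With median centring Mpc1 and Abcb10 were not called (0.12 and 0.13).

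Of 14 genes of the machinery that imports carriers 0 passed by limma (2 at an unadjusted p under 0.05), and the median was -0.06. Of 20 genes of mitochondrial mass and biogenesis 4 fell (median -0.08). Esrra, a nuclear receptor that drives mitochondrial genes, fell by 1.03 (SE 0.14) and Polg, the mitochondrial DNA polymerase, by 0.80 (SE 0.11), both with limma adjusted p at or below 0.0045. The coactivator gene Ppargc1a was at background on all 3 cKO arrays. Its control and cKO means were 6.70 and 5.76 as measured (limma adjusted p = 0.042). This call was lost without control 1, 2 or 3 or cKO 2 or 3 (limma adjusted p of 0.066 to 0.15). With cKO values held at or above the background level Ppargc1a was at least 1.58-fold lower, a bound that was not tested. Cox4i1, a cytochrome c oxidase subunit gene, differed by -0.56 (limma adjusted p = 0.021), a call lost without control 2 or 3 or cKO 3 (0.058 to 0.099) and with quantile normalization (0.057).

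**Figure D4:**
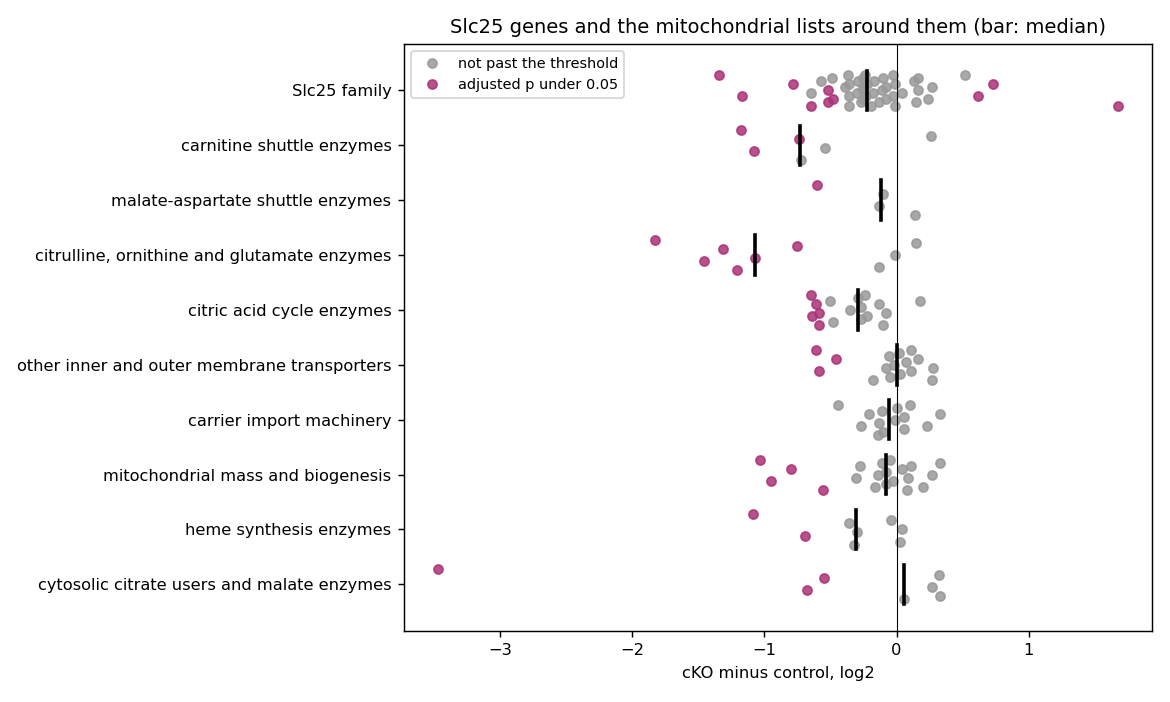
Difference between cKO and control (log2, horizontal axis) of each gene in the carrier family and in 9 lists around it. The median is a bar and genes past the threshold are in purple. The enzymes of citrulline, ornithine and glutamate metabolism have the lowest median, -1.07, and the carrier family holds the only genes past the threshold on the right, 3 of them.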

How the data were processed

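The single table holds the authors' deposited log2 expression values, 35512 probe sets on 6 arrays, made with dChip from Affymetrix mouse gene arrays per the labels' design text. The log2 scale is read from the range of the values. Not given in the sources used here: the dChip version, background correction, normalization and build. Of the probe sets, 21789 had 1 gene symbol, 1621 several and 12102 none listed; symbols were updated through the gene identifier (RefSeq, GRCm38.p6) for 21698. Genes with several probe sets (999) took the brightest, which left 19938 genes, with no filter. limma 3.58.1 (lmFit, eBayes, R 4.3.3) compared 3 cKO with 3 control arrays, two-sided, without covariates, and was tested on simulated data. Whether each array holds a separate animal is not stated, so a p-value measures the spread between these arrays, whose number limits the precision. Members, lists and tests were chosen with earlier results of these data known. Named are all members past the threshold, 15 fixed members, and of each list up to 4 genes (markers up to 2) with the smallest p; other names were chosen after their values were seen. Alternatives were other scalings, filters on dim genes, other probe set rules, a mean-variance trend, array weights, a replicate block and each array left out.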

Additional observations from a re-analysis of the deposited data

How the results depend on the processing

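Over 17 alternatives, 5 of the 10 carriers called (Slc25a12, Slc25a15, Slc25a24, Slc25a34 and Slc25a44) kept their call wherever they were tested; Slc25a34 was not among the brighter 50% of genes. Of 335 values of the 20 carriers named by rule, 284 kept direction and side of the threshold, 28 lost and 17 gained a call. Over all 48 carriers, 12 changed sign in at least 1 alternative, 0 of them called and none above 0.19 in size. Among the 20, direction reversed in 6. Ucp1 was 0.02 with quantile normalization and with cyclic loess, 0.07 without cKO 2 and 0.07 without cKO 2 plus quantile normalization, an alternative added after seeing the data; Ucp3 was -0.01 without control 3 and -0.08 without cKO 3. With 1 array left out Ucp1 ran from -0.33 to 0.07 and Ucp3 from -0.08 to 0.16. Members that fell numbered 3 with median centring (6.25%, against 5.47% of all genes). Without the dimmer 50% of genes they numbered 11 of the 27 tested (40.7%, against 16.9%). They numbered 11 with a mean-variance trend (22.9%, against 8.86%) and 13 with array weights (27.1%, against 14.6%). Array weights also gave 5 that rose (10.4%, against 14.7%). Leaving out 1 array gave 3 to 7 that fell and 2 to 3 that rose. Over all genes array weights gave 2921 higher and 2913 lower, against 1358 and 1467. With 1 array left out these were 509 to 1275 and 717 to 1438, and the lists around the carriers held 13 to 25 calls. The median of all genes was 0.01 with median centring, without cKO 2 and without cKO 2 plus quantile normalization, and -0.13 to 0.01 with 1 array left out. Cdh1 passed without the dimmer 50% of genes (-0.95), with a mean-variance trend (-0.95) and with array weights (-0.89), and ranged from -1.30 to -0.64 with 1 array left out (without cKO 1 it passed, at -1.30). The sample titles do not say whether same-numbered arrays are paired. Their deviations from the group means correlated at -0.0798, 0.131 and 0.137, and those of arrays with different numbers at -0.244 to 0.154. Not every array correlated best with its own number, but so few arrays cannot decide whether they are paired. With the replicate block 4 members fell (8.33%, against 6.13% of all genes). The cause of these changes was not tested. Values at background on all arrays carry no order.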
